A study of Mus musculus with 2 samples.

Results

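The genes described here are the machinery of autophagy and of mitophagy, its selective form that removes mitochondria. A list of 46 mouse genes was looked up by gene name among the non-control probes of 2 Agilent arrays, and 44 of them were found, with 65 probes on 83 spots. The other members, Tfeb and Tfe3, stand on the array under the older names Tcfeb and Tcfe3 and are given separately. Of the 44 genes, 43 were measured on both arrays, among 15401 measured genes of the whole array. A gene counted as measured where at least 1 of its probes was well above background on both arrays. Atg4a, 1 of the proteases that trim ATG8 proteins, was not well above background on either array, so no level is given for it.

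Each array held total liver RNA of 1 sample. The knockout (KO) sample is labelled as a Drp1 knockout, and the wild-type (WT) sample as wild type. Both came from male C57BL/6J mice fed a high-fat diet for 24 weeks from 4 weeks of age, a lard diet with 24% fat that supplied 45% of its energy. The series title places the disruption of Drp1 in the liver, but the labels name no Cre driver and no deleted exon, and give neither the number of mice per sample nor whether these livers were fasted for 17 hours or refed for 4 hours. With 1 array per group there is no replicate check and no test, and every difference below is between these 2 samples, called KO liver and WT liver.

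Autophagy wraps cytoplasm in a double membrane that is delivered to the lysosome. The ULK kinase complex starts it, a class III phosphatidylinositol 3-kinase marks the membrane, ATG9 vesicles and lipid transfer proteins enlarge it, and 2 ubiquitin-like conjugation systems attach ATG8 proteins (LC3 and GABARAP) to it. Cargo receptors bind ubiquitinated material with one end and ATG8 proteins with the other, and PINK1 with Parkin, or receptors in the outer mitochondrial membrane, mark mitochondria for removal. DRP1, the product of Dnm1l, is a dynamin-related GTPase that divides mitochondria, a step long studied beside mitophagy.

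Levels are given as multiples of the 75th percentile of the array's signals, and differences as log2 of KO over WT. A gene with several probes has the mean of their log2 values, and a gene was called from 1.5-fold. Over all measured genes, 8.41% were at least 1.5-fold higher in KO liver and 13.4% at least 1.5-fold lower, and the median difference was -0.11. Repeated spots of a probe had an SD of 0.083 on the KO and 0.113 on the WT array (log2, 241 probes). This gives a difference an SD of 0.14 log2 from spot error within the arrays alone. It leaves out labelling and hybridization differences between the arrays, and says nothing of the spread between mice. Well above background were 57.1% of probes on the KO array and 50.5% on the WT array, which lay on 1 slide. The single Dnm1l probe, at position 3993 of its transcript, had a level of 1.75 in KO and 2.03 in WT liver, a difference of -0.21. The deleted part of the gene is not given, so a level at this probe cannot check which sample is the knockout.

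The 8 hepatocyte markers were well above background on both arrays, as the tissue label asks, with summed levels of 2108 in KO and 3039 in WT liver (1 higher and 3 lower from 1.5-fold). The samples also differed in markers of other cells. Of 7 stellate cell markers, 4 were higher and 1 lower in KO liver (summed level 65.9 in KO, 46.0 in WT). Of 8 macrophage markers, 2 were higher and 0 lower (109 in KO, 95.1 in WT). Of 5 endothelial markers, 2 were higher and 0 lower (45.0 in KO, 53.9 in WT). Among 4 measured lymphocyte markers, 1 was higher and 1 lower (3.78 in KO, 4.90 in WT). Among 2 measured bile duct markers, 1 was higher and 0 lower (0.393 in KO, 0.233 in WT). All 3 erythroid markers (98.1 in KO, 174 in WT) and all 4 measured neutrophil markers (2.06 in KO, 4.47 in WT) were lower, and 7 of 8 skeletal muscle markers were not well above background in KO liver, against 1 of 8 in WT liver (summed level 0.486 in KO, 7.97 in WT). Of 6 adipocyte markers, Adipoq, Plin1, Lep and Retn were not well above background on either array, Fabp4 had a level of 2.45 in KO and 2.43 in WT liver, and Cfd had 0.126 in KO and 4.23 in WT liver (-5.07). The part of these cells in the differences below was not tested, and in bulk RNA fewer cells of a type and less RNA per cell cannot be told apart.

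The genes at least 1.5-fold higher in KO liver rest on few probes, so 1 probe of each is shown (60 bases, 5′ to 3′, lower case, as the array file gives them in mm9). The Atg16l2 and Tbk1 probes lie over 231 and 224 bases of the genome, so the array's design places them across a gap. Exon annotation of that build was not used here. None of the 65 member probes shared a run of 20 bases with a probe of another gene name. Among probes of 1 gene, the pair for Atg4c shared such a run, and the pair for Pik3c3 overlaps by less than that.
Atg16l2, chr7:108438916-108439146, minus strand: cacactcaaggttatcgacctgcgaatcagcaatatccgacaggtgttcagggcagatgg
Sqstm1, chr11:50015985-50016044, minus strand: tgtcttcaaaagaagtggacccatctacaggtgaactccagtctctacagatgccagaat
Nbr1, chr11:101441948-101442007, plus strand: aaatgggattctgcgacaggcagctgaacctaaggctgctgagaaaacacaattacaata
Tbk1, chr10:120988364-120988587, minus strand: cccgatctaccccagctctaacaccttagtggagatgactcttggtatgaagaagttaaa

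Across the machinery, 4 of the 43 measured members were at least 1.5-fold higher in KO liver (9.30%, against 8.41% of all measured genes) and 2 were at least 1.5-fold lower (4.65%, against 13.4%). Their median difference, -0.11, was that of all genes, with 15 members above 0 and 28 below (34.9% above 0, against 39.9% of all measured genes). The share called higher is close to that background, and neither share was tested. After loess normalization, 24 of the 43 members were above 0, as were 7778 of all 15401 measured genes. The members called higher were Atg16l2, Sqstm1, Nbr1 and Tbk1, and those called lower were Atg14 and Atg4d. Differences ran from -0.76 to 1.25. Scaling to spike-in spots, added after the data were seen, puts 0.78 on every difference, so that 28 members were then higher and 0 lower, against 58.5% and 1.35% of all genes, and neither Atg14 nor Atg4d was lower.

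**Figure D1:**
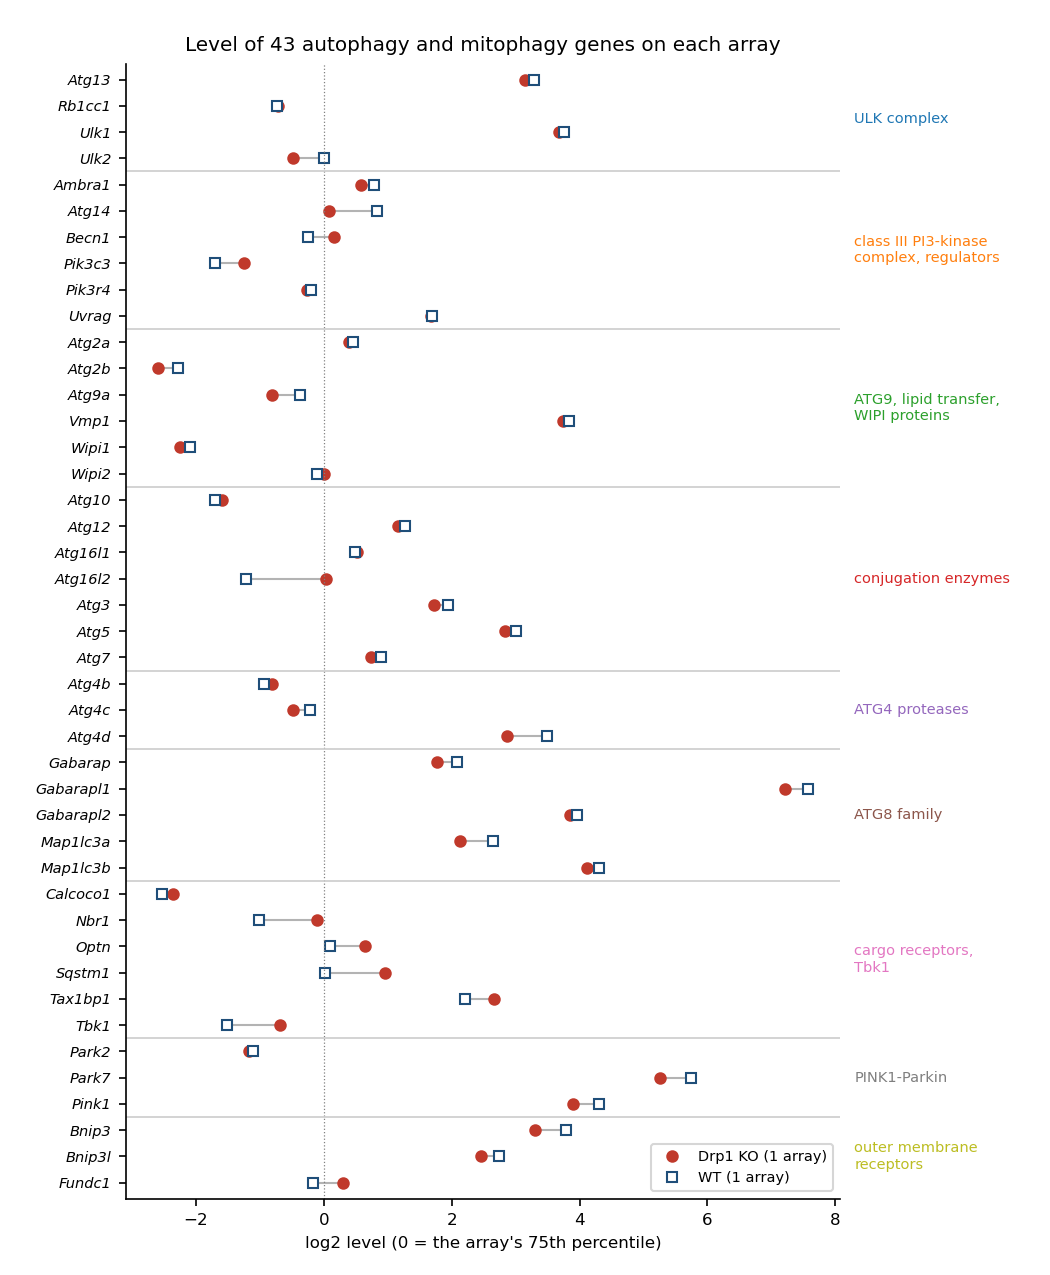
Level of each of the 43 measured members in log2, relative to the array's 75th percentile (x axis), with KO liver as filled red circles and WT liver as open blue squares, 1 array each, in role groups. The KO point of Atg16l2, Sqstm1, Nbr1 and Tbk1 lies clearly right of the WT point, and that of Atg14 and Atg4d clearly left. Levels of different genes come from different probes and are not comparable.

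In the ULK initiation complex, 0 of the 4 measured members reached 1.5-fold, and their median was -0.10. Of all measured genes, 8.41% were higher and 13.4% lower. Ulk1, the kinase that starts autophagosome formation, had a level of 12.8 in KO and 13.5 in WT liver, a difference of -0.07. Ulk2, its relative, had the most negative difference of the 4 (-0.48), with a level of 0.716 in KO and 1.001 in WT liver, and passed 1.5-fold when its brightest probe stood for the gene. Its 2 probes differed, at -0.69 and -0.27. Atg13, the adaptor of the kinase, lay at 8.87 in KO and 9.74 in WT liver (-0.13), and the scaffold Rb1cc1 (FIP200) at 0.611 in KO and 0.605 in WT liver (0.02), with probes at -0.16 and 0.19 that differ in sign. Under quantile or loess normalization, normexp correction and in the deposited table, the group's median was between 0.02 and 0.04. Ulk1 was then between 0.12 and 0.17 and Atg13 between 0.05 and 0.07, while Ulk2 stayed between -0.49 and -0.41.

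Of the class III kinase complex and its regulators, 1 of 6 was lower and 0 were higher, with a median of -0.04. The shares over all measured genes were 13.4% lower and 8.41% higher, and the count was not tested against them. Atg14, which directs the kinase to the site where autophagosomes form, had a level of 1.06 in KO and 1.79 in WT liver, a difference of -0.76 (1.69-fold lower, on 1 probe). A pair of its partners in the same complex lay the other way without reaching 1.5-fold. Pik3c3, its lipid kinase, had levels of 0.423 in KO and 0.306 in WT liver (0.46), and Becn1, its Beclin subunit, 1.12 in KO and 0.841 in WT liver (0.41). Pik3r4, the regulatory subunit, had 10 spots per array, with a median level of 0.836 in KO (0.762 to 0.893) and 0.878 in WT liver (0.791 to 0.931), so the spots overlapped. Uvrag, which replaces Atg14 in a second form of the complex, was level at 3.21 in KO and 3.23 in WT liver (-0.01), and Ambra1, an upstream regulator, differed by -0.20.

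Among proteins that build the membrane, 0 of 6 reached 1.5-fold (against 8.41% higher and 13.4% lower of all measured genes) and the median was -0.13. Atg9a, the scramblase carried on ATG9 vesicles, had the most negative difference (-0.43), with a level of 0.571 in KO and 0.768 in WT liver. Wipi2, which binds the phosphoinositide mark and recruits the conjugation machinery, had the most positive (0.11), with a level of 0.999 in KO and 0.924 in WT liver (probes at -0.03 and 0.25). The lipid transfer genes Atg2a and Atg2b differed by -0.05 and -0.31, and Vmp1, an endoplasmic reticulum scramblase, by -0.10. Wipi1, a relative of Wipi2, had a level of 0.210 in KO and 0.235 in WT liver, with a mean difference of -0.16 over probes at 0.36, 0.04 and -0.89, which span more than 1.5-fold and differ in sign, so its direction depends on the probe.

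Within the conjugation systems, 1 of 7 genes was called higher (against 8.41% of all measured genes) and the other 6 lay between -0.21 and 0.12. Atg16l2 had a level of 1.03 in KO and 0.432 in WT liver, a difference of 1.25 or 2.38-fold, rank 255 of 15401 from the highest. Both of its probes were higher: at position 1644 the level was 0.651 in KO and 0.253 in WT liver (1.36), and at position 2053 it was 1.62 in KO and 0.735 in WT liver (1.14). Its paralogue Atg16l1, the main scaffold that places ATG8 conjugation on the membrane, was level at 1.43 in KO and 1.41 in WT liver (0.02). Atg5, which is joined to ATG12, had levels of 7.17 in KO and 8.04 in WT liver (-0.17), and Atg3, the enzyme that hands ATG8 to lipid, 3.30 in KO and 3.83 in WT liver (-0.21). Atg7, the common activating enzyme, had a level of 1.66 in KO and 1.85 in WT liver (-0.16, probes at -0.36 and 0.04). Atg10, the transfer enzyme for ATG12, had 0.332 in KO and 0.306 in WT liver (0.12, probes at -0.20 and 0.43). Atg12 itself had 2.23 in KO and 2.42 in WT liver (-0.11, probes at -0.38 and 0.15). The probes of each of these 3 genes differ in sign, and those of Atg10 also by more than 1.5-fold.

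ATG4 proteases cut ATG8 precursors and release ATG8 from membranes. Of the 3 measured, 1 was lower and 0 higher, against 13.4% and 8.41% of all measured genes. Atg4d had a level of 7.32 in KO and 11.2 in WT liver, a difference of -0.61 (1.53-fold lower) that lies just inside the threshold and was between -0.42 and -0.40 after quantile or loess normalization, normexp correction and in the deposited value table. Atg4b had a level of 0.572 in KO and 0.524 in WT liver (0.13), and Atg4c differed by -0.26.

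In the ATG8 family, 0 of 5 reached 1.5-fold, against 8.41% higher and 13.4% lower of all measured genes. Map1lc3a had a level of 4.38 in KO and 6.23 in WT liver (-0.51), just outside the threshold. Map1lc3b, the usual marker of autophagosomes as a protein, had 10 spots per array with a mean level of 17.4 in KO (16.2 to 18.2) and 19.8 in WT liver (17.4 to 20.6), a difference of -0.19, and the spots of the 2 arrays overlapped in part. Gabarap lay at 3.40 in KO and 4.26 in WT liver (-0.33), Gabarapl1 at 149 in KO and 190 in WT liver (-0.35), and Gabarapl2 at 14.4 in KO and 15.6 in WT liver (-0.12). All 5 were below 0, but 3 of 5 were above 0 after quantile or loess normalization, normexp correction and in the deposited table, and 5 of 5 after spike-in scaling, and the family's median was 0.05 after loess. Bright genes were on balance lower, with a median of -0.30 in the brightest decile of all genes, though the dimmest decile had a median of -0.25, and 17 members lie in the brightest 3 deciles.

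**Figure D2:**
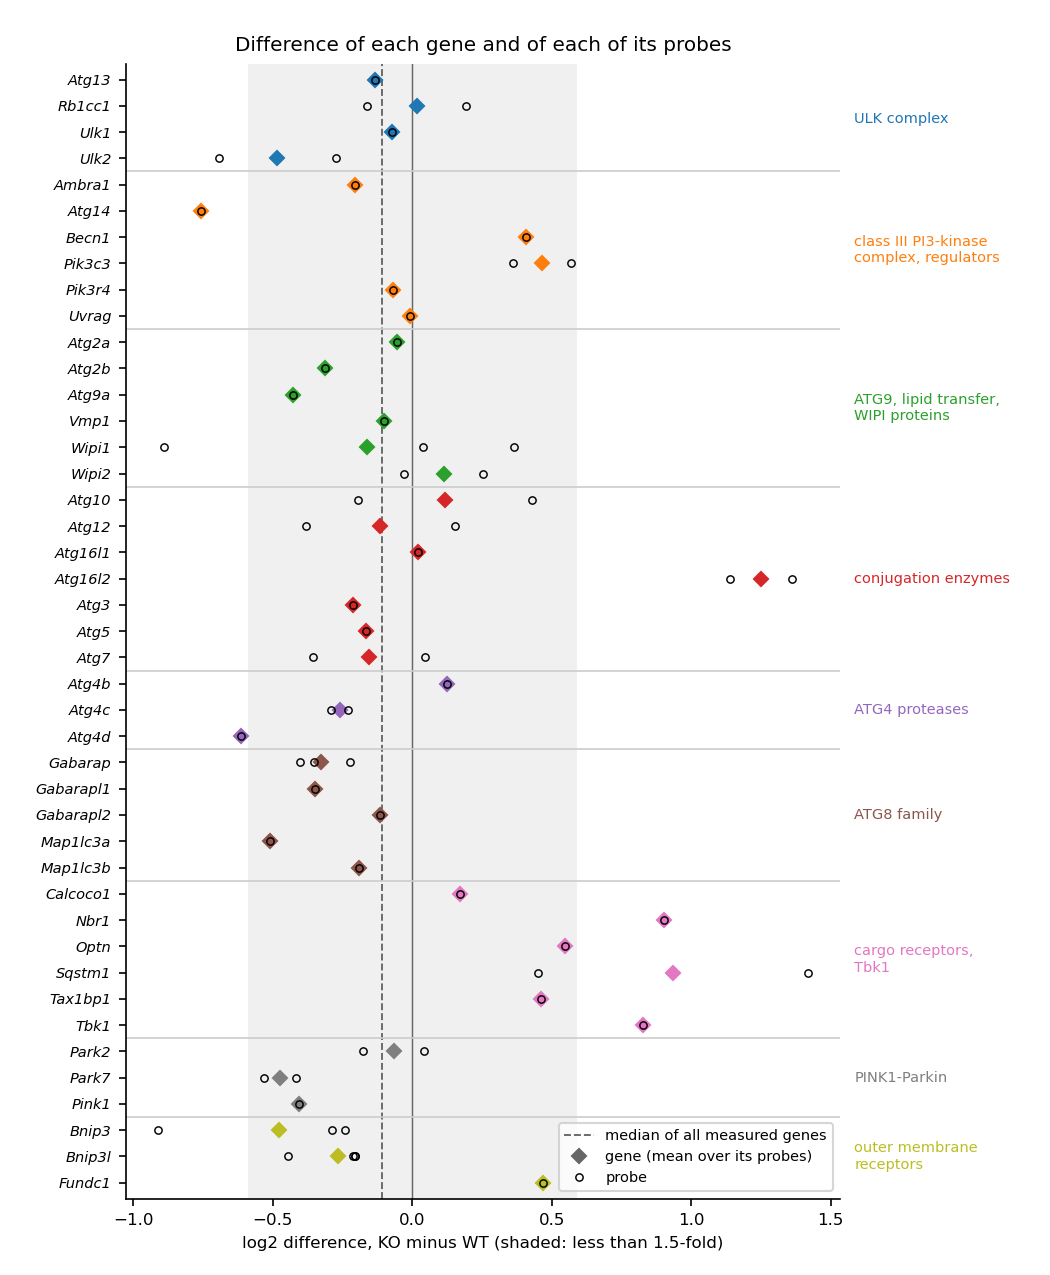
Difference in log2 of KO over WT liver (x axis) for each measured member (diamond, coloured by role) and each of its probes (open circle). The shaded band is less than 1.5-fold, and the dashed line is the median of all measured genes at -0.11. The 5 cargo receptors and Tbk1 lie right of 0, while the 5 ATG8 genes lie left of it in this processing.

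Cargo receptors and their kinase read higher in KO liver: 3 of 6 reached 1.5-fold (against 8.41% of all measured genes). In this group 6 of 6 were above 0 (against 39.9%). Their median was 0.69, against -0.11 over all genes and -0.16 over the 37 other measured members. Members and lists were chosen with earlier results of these data known, so this comparison is descriptive and was not tested. Sqstm1 (p62), which gathers ubiquitinated proteins into condensates for autophagy, had a level of 1.93 in KO and 1.01 in WT liver, a difference of 0.93 or 1.91-fold. Its probes agree in direction and not in size. The probe at position 1060 had a level of 20.2 in KO and 7.57 in WT liver (1.42), and the one at position 2613 had 0.185 in KO and 0.135 in WT liver (0.45).

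Nbr1, a relative of p62 that acts beside it, had a level of 0.927 in KO and 0.496 in WT liver (0.90, 1.87-fold). Tbk1, the kinase that phosphorylates Optn and p62 and so tightens their binding to ubiquitin and ATG8, had 0.618 in KO and 0.349 in WT liver (0.83, 1.77-fold). Optn, a receptor for ubiquitinated mitochondria, was just outside the threshold, with a level of 1.56 in KO and 1.07 in WT liver (0.55, 1.46-fold). Tax1bp1, a receptor for protein aggregates, had 6.34 in KO and 4.61 in WT liver (0.46) and passed 1.5-fold after quantile or loess normalization and in the deposited table. Calcoco1, a receptor for endoplasmic reticulum and Golgi, had the smallest difference of the 6 (0.17), with a level of 0.195 in KO and 0.174 in WT liver. In the same KO sample, 4 of 7 stellate cell markers were called higher and 1 lower, and 2 of 8 macrophage markers higher. Of 5 endothelial markers, 2 were called higher and 0 lower, though their summed level was 45.0 in KO and 53.9 in WT liver. Among measured lymphocyte markers 1 was higher and 1 lower, and among bile duct markers 1 was higher and 0 lower. The summed stellate level rests largely on Dcn, at 63.0 in KO and 44.6 in WT liver. Of the macrophage markers, Cd5l had the highest level, at 41.5 in KO and 34.8 in WT liver. Marco was at 16.7 in KO and 5.33 in WT liver, while Clec4f, Csf1r and Timd4 were not higher. The part of these cells in the differences of the cargo receptors was not tested.

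**Figure D3:**
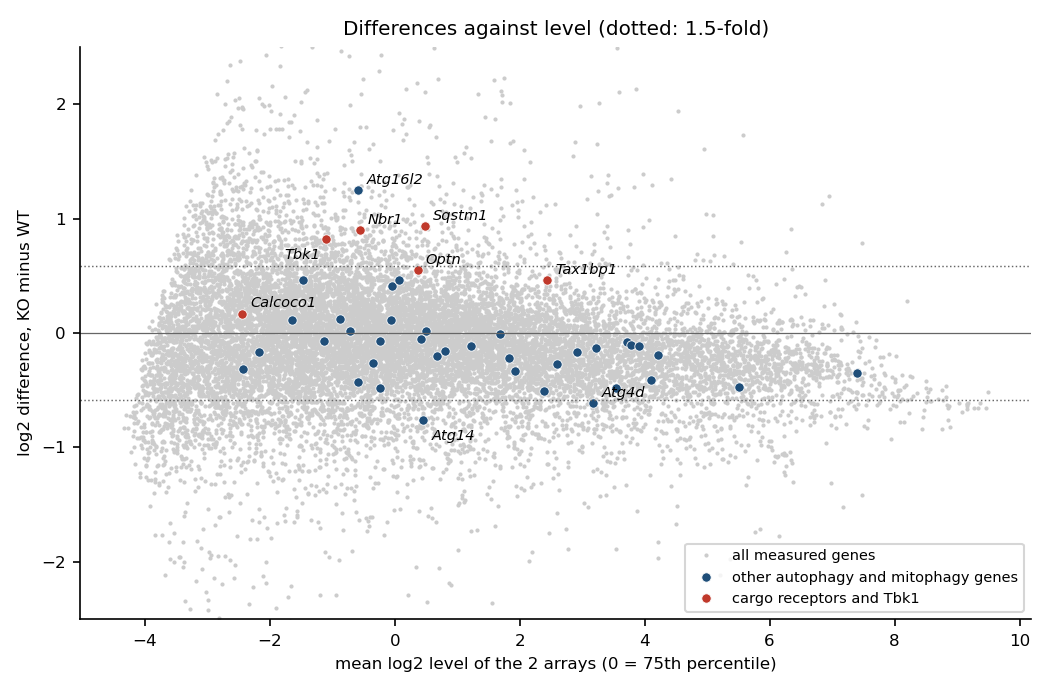
Difference in log2 of KO over WT liver (y axis) against the mean log2 level of both arrays (x axis), with all measured genes in grey, cargo receptors and Tbk1 in red and other members in blue. The 6 red points lie above 0 at levels from dim to moderately bright, and 72 genes lie outside the y axis at 2.5.

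None of the 6 members in the PINK1-Parkin and outer membrane receptor groups reached 1.5-fold. Of all measured genes, 8.41% were higher and 13.4% lower. Of the PINK1-Parkin pathway, 0 of 3 were called. Pink1, the kinase that accumulates on damaged mitochondria, had a level of 14.9 in KO and 19.7 in WT liver (-0.41), Park7 (DJ-1), an oxidative stress sensor, 38.5 in KO and 53.4 in WT liver (-0.47, probes at -0.53 and -0.42), and Park2 (Parkin), the ubiquitin ligase, 0.444 in KO and 0.465 in WT liver (-0.07, probes at -0.18 and 0.04). Of the outer membrane receptors, Bnip3 had a level of 9.88 in KO and 13.8 in WT liver (-0.48), and Bnip3l (Nix), its relative, 5.52 in KO and 6.65 in WT liver (-0.27). Fundc1, a receptor that responds to hypoxia, lay the other way at 1.23 in KO and 0.889 in WT liver (0.47). The 3 Bnip3 probes read 49.7 in KO and 58.8 in WT liver (-0.24), 39.0 in KO and 47.6 in WT liver (-0.29), and 0.497 in KO and 0.934 in WT liver (-0.91), so 1 probe lies further from 0 than the others and draws the gene mean down. After loess normalization these probes were at 0.07, 0.01 and -0.91, so the lower gene mean then rests on the dimmest probe. The 4 Bnip3l probes ran from -0.45 to -0.21. Several of these differences shrank under quantile or loess normalization, normexp correction and in the deposited table. Pink1 was then between -0.18 and -0.16, Park7 between -0.17 and -0.15, and Bnip3l between -0.11 and -0.10. Bnip3 was between -0.28 and -0.22, and Fundc1 stayed between 0.41 and 0.48.

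Tfeb and Tfe3 encode transcription factors that switch on lysosome and autophagy genes. Tfeb, listed on the array as Tcfeb, had a level of 0.174 in KO and 0.271 in WT liver on 1 of its 2 probes (-0.63, 1.55-fold lower), the other probe being not well above background. Tfe3, listed as Tcfe3, had probes at -0.05 and 0.01.

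Beyond the member list, 26 of 28 other autophagy genes were measured, of which 1 was higher and 2 lower. Over all measured genes, 8.41% were higher and 13.4% lower. The median of these autophagy genes was -0.09, close to the -0.11 of all genes. Epg5, which tethers autophagosomes to lysosomes, had a level of 0.871 in KO and 0.534 in WT liver (0.71), Wdfy3 (ALFY), an adaptor for aggregates, 0.127 in KO and 0.216 in WT liver (-0.77), and Wdr45b, a WIPI protein, 0.331 in KO and 0.504 in WT liver (-0.61, probes from -1.06 to -0.17). Of 16 other mitophagy genes, 0 were higher and 2 lower, against the same 8.41% and 13.4% of all genes. The 2 lower genes were the mitochondrial receptors Bcl2l13, with a level of 1.42 in KO and 2.89 in WT liver (-1.03), and Fkbp8, with 17.4 in KO and 28.9 in WT liver (-0.73).

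Grouped by a known regulator, the genes had medians near that of all genes. Of 12 autophagy genes known as Atf4 or Chop targets, 2 were higher (Sqstm1 and Nbr1) and the median was -0.12. Of 9 genes known as FoxO3 targets in muscle, 0 were higher or lower (median -0.19), and of 6 measured Tfeb targets 1 was higher, Sqstm1 (median -0.05). Over all measured genes 8.41% were higher and 13.4% lower, and the counts of these small lists were not tested against those shares. These lists share members with each other and with the member list.

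**Figure D4:**
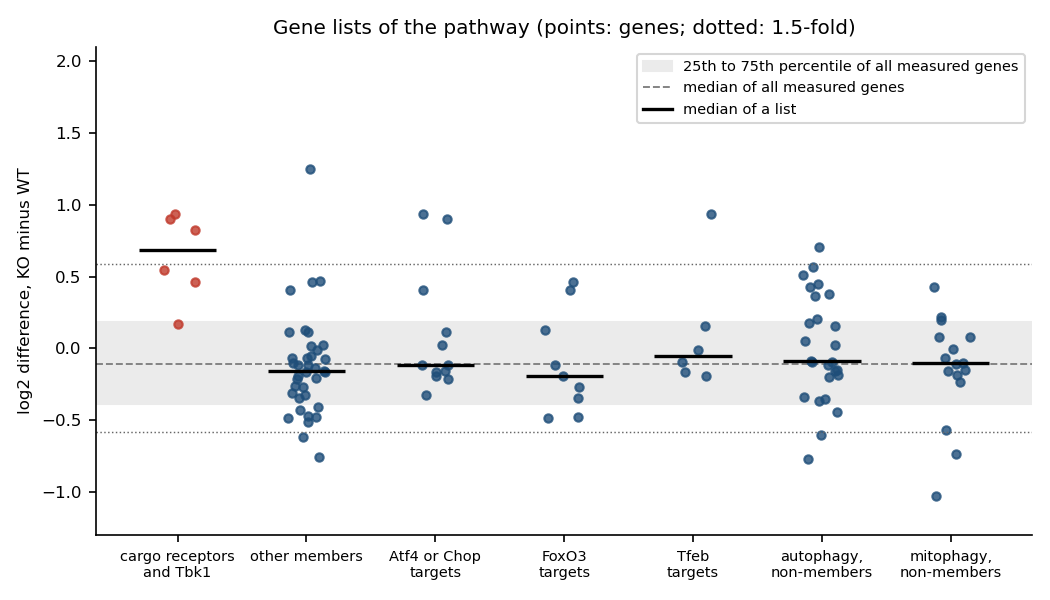
Difference in log2 of KO over WT liver (y axis) for single genes of 7 lists, with a bar at each list's median. The grey band runs from the 25th to the 75th percentile of all measured genes and the dashed line is their median. Of these lists, only the cargo receptors with Tbk1 have a median above 0, at 0.69. The lists were chosen with earlier results of these data known.

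Promoters of the 4 members called higher are shown because these genes were called in the same direction (RefSeq, GRCm38.p6), 100 bases before to 20 from the start, 5′ to 3′ on the gene's strand, with a motif match in capitals. Motifs were searched on both strands in 300 bases from 250 before to 50 after the start, in 38 members with a window and in 27025 genes. A match is a description of letters, and no match says only that the letters are not in the window.
Atg16l2, chr7:101302069-101302188, minus strand: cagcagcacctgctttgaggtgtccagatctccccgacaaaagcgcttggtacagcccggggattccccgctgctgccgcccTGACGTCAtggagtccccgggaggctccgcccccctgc
Tbk1, chr10:121586775-121586894, minus strand: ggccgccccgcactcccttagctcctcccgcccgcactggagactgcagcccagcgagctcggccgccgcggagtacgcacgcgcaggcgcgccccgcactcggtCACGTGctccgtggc
Sqstm1, chr11:50210801-50210920, minus strand: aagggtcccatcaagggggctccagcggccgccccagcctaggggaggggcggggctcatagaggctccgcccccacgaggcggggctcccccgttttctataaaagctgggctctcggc
Nbr1, chr11:101552554-101552673, plus strand: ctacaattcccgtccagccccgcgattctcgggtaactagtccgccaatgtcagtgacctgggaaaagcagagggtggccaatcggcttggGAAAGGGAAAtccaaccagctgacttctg

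The 4 windows hold no common motif of those searched. Atg16l2 holds the cAMP response element TGACGTCA, found in 2 of 38 members (Atg16l2 and Atg5) and 2.03% of all genes. Tbk1 holds the E-box CACGTG, in 6 of 38 members (Atg14, Atg3, Atg5, Atg7, Bnip3 and Tbk1) and 8.09% of all genes. Nbr1 holds an interferon-stimulated element (in capitals above) in 1 of its 2 windows, found in 1 of 38 members and 3.99% of all genes, and Sqstm1 holds none of them. The antioxidant response element TGACNNNGC stands in 5 of 38 members, Atg13, Map1lc3b, Tax1bp1, Ulk2 and Vmp1, and in 14.0% of all genes. The CLEAR element, a longer form of the E-box, the C/EBP-ATF element TGATGCAA and the forkhead element GTAAACA stand in 0 of 38 members, against 0.37%, 1.03% and 4.05% of all genes in that order.

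**Figure D5:**
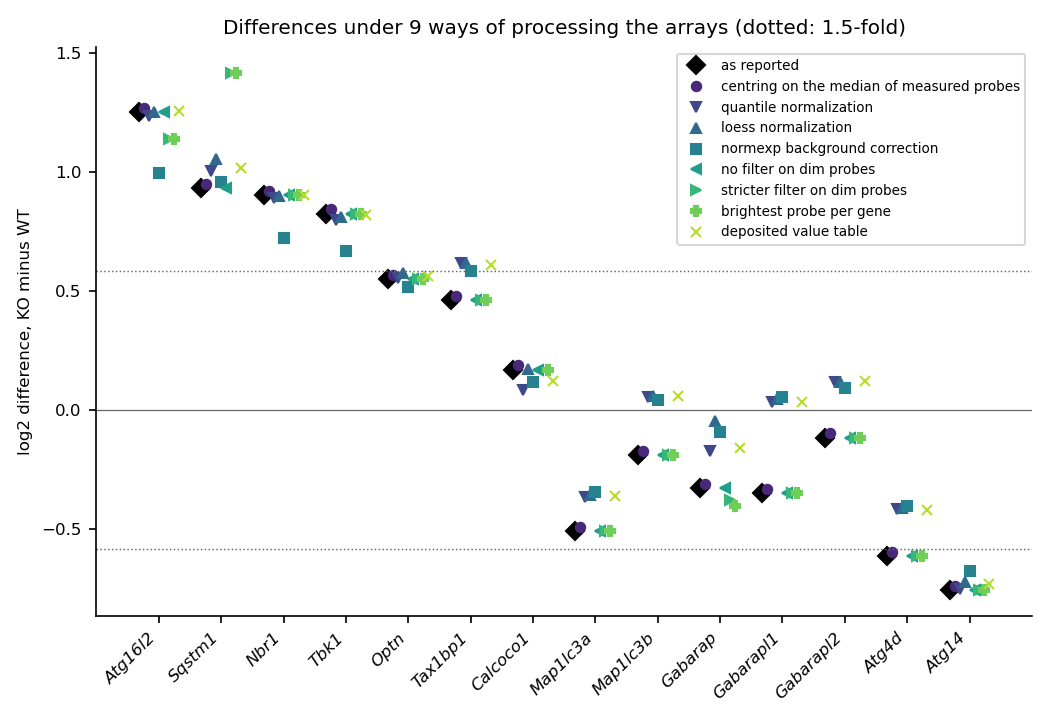
Difference in log2 of KO over WT liver (y axis) for 14 members (x axis) under 9 ways of processing the arrays. Dotted lines mark 1.5-fold. Atg16l2, Sqstm1, Nbr1 and Tbk1 lie above the upper line and Atg14 below the lower in all 9, Atg4d crosses the lower line, and 3 of the 5 ATG8 genes cross 0. For genes with 1 probe, such as Nbr1, Tbk1 and Atg14, the filter settings and the brightest probe repeat the reported value.

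Of 16 members with several measured probes, 4 (25%) had probes at least 1.5-fold apart in difference, Sqstm1, Bnip3, Wipi1 and Atg10, against 19.5% of 3348 genes of the whole array. The pooled SD of the difference between probes of a gene was 0.33 in members and 0.36 over all genes. Of the called members, Nbr1, Tbk1, Atg14 and Atg4d rest on 1 probe each, and Atg16l2 is the member whose probes both passed the threshold.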

How the data were processed

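Total RNA was purified with TRIzol and a Promega kit, amplified and labelled with Cy3 with Agilent's Low Input Quick Amp kit, per the labels' protocols. The deposited scanner files hold spot intensities from Agilent Feature Extraction (10.7.1.1 per the file headers, 9.5.1.1 per the submitters' processing notes). Intensities in the deposited value table are linear, with a median of 45.9 in both columns and nearly equal sorted values, as quantile normalization gives, and what else was done to it is not given in the sources used here.

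Processed intensities were divided by the array's 75th percentile and log2-transformed. Outlier spots were left out (190 on the KO and 183 on the WT array, 0 of them member spots), 0 spots were saturated, and copies were averaged. To count as measured on an array, a probe needed 50% or more of its spots well above background after outliers were removed. No p-value is given, as each group has 1 array, and the number of arrays limits the precision. Calculations used Python 3.11.15, pandas 2.3.3, numpy 2.4.6, R 4.3.3 and limma 3.58.1 (loess span 0.3, normexp offset 50), and were tested on simulated data. Members and lists were chosen with earlier results of these data known. All members were accounted for. Full values are given for those at least 1.5-fold apart, the extremes of each role group, and those whose probes differ in sign or by 1.5-fold. Of the other autophagy and mitophagy genes, those at least 1.5-fold apart are named, and cell type markers are given by counts and summed levels. Alternatives were quantile normalization, centring on the median, loess, normexp correction, dim probes kept, a stricter filter that dropped probes in the dimmest 25% on either array, the brightest probe per gene, the deposited value table, and probe names taken from RefSeq (GRCm38.p6) by accession for 26761 probes, by symbol or synonym for 3814 and 639, with the file's own name kept for 8215.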

Additional observations from a re-analysis of the deposited data

How the results depend on the processing

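With 1 array per group, no array could be left out. No paired analysis was possible because each group holds 1 array. Atg16l2, Sqstm1, Nbr1 and Tbk1 stayed at least 1.5-fold higher and Atg14 lower under the 9 alternatives chosen at the outset. Nbr1, Tbk1 and Atg14 have 1 probe each, so both filter settings, the brightest probe and RefSeq names repeated their reported values. For these genes the alternatives that could alter the call were mainly quantile and loess normalization, normexp correction and the deposited table. Members at least 1.5-fold lower numbered 1 under quantile normalization, loess normalization, normexp correction and the deposited table, against 2 as reported, as Atg4d left the call; the higher count was then 5, 5, 4 and 5. The lower count was 3 with the brightest probe (Ulk2 added), without a filter (Atg4a added) and with RefSeq names (Tfeb added). The members' median was 0.0309 under loess, where that of all genes was 0.0044. Sqstm1 was at 1.42 with the stricter filter or the brightest probe, which leave its probe at position 1060. Over 385 member values under these alternatives, 310 moved by less than the spot SD, 75 by more, and 0 called values changed sign. The 310 overstate stability, because many values had no room to move. Keeping dim probes and RefSeq names left each of the 43 measured members as reported, and centring shifted all genes alike. The stricter filter and the brightest probe cannot move a gene with 1 probe. An alternative chosen after seeing the data, scaling to 8 spike-in probes that were 0.99 to 0.74 log2 lower in KO, added 0.78 to every difference: 28 members were then higher and 0 lower, with a median of 0.67 for members and all genes, and Atg14 at 0.0265 and Atg4d at 0.17 changed sign. Over all genes, 1295 higher and 2065 lower (38.5% higher) became 814 and 941 under normexp correction, 654 and 1272 with a stricter filter, 3168 and 11338 without a filter (21.8%), 1505 and 1467 under loess (50.6%) and 9011 and 208 with spike-ins (97.7%).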

Other observations

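Receptors for the endoplasmic reticulum and for other cargo, chosen from the autophagy list after their values were seen, did not reach 1.5-fold. Ccpg1, a receptor for stressed endoplasmic reticulum, had a level of 0.814 in KO and 0.571 in WT liver (log2 difference 0.51), and Retreg1 (FAM134B) 2.09 in KO and 1.53 in WT liver (0.45). Stbd1, a glycogen receptor, lay at 26.5 in KO and 20.4 in WT liver (0.38). Tex264, with 15.1 in KO and 19.2 in WT liver (-0.34), and Sec62, with 14.7 in KO and 16.4 in WT liver (-0.16), lay the other way. Ncoa4, the ferritin receptor, was level at 10.4 in KO and 9.99 in WT liver (0.05).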
